A study of Mus musculus with 6 samples.

Results

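The p53 pathway genes are a list of 32 mouse genes, written from general knowledge of p53. It holds the p53 gene itself, the regulators Mdm2 and Mdm4, and genes described as p53 targets or as part of its response. Whether p53 activates each of them in these cells was not tested. Of these 32, 30 had a probe set with a single gene symbol, out of 19938 such genes on the array. Trp53, which encodes p53, and Gdf15, a secreted stress factor, were not analysed here. Of the 30 measured genes, 27 were bright enough to be tested, and Eda2r, Perp and Plk2 lay below the filter on dim genes. That filter was set on the mean over all arrays of both treatments, at a log2 intensity of 6.70.

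The arrays compared mice given Tamoxifen with mice given Vehicle, both carrying T cell acute lymphoblastic leukemia (T-ALL) driven by Notch. The leukemias arose from blood progenitors transduced with a retrovirus carrying Notch-IC, the active intracellular part of Notch, and the progenitors carried the Zfx fl/y allele and a Cre-ER transgene in both groups. The Tamoxifen group is labelled ZFX null and received 5 mg by gavage daily for 3 days, starting 10 days after transplant into sublethally irradiated secondary recipients. The Vehicle group is labelled ZFX flox and came from recipients prepared in the same way. Leukemia cells positive for GFP were sorted 48 h after dosing ended. Each group held 3 arrays, 1 from each of the independent leukemias 14843, 14844 and 14846, and every line gave 1 array per treatment. No group received Tamoxifen without Cre-ER or without the floxed allele, so loss of Zfx, Cre activity and the drug cannot be told apart. The sources used here do not give the promoter that drives Cre-ER or the ages of the mice.

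The protein p53 is a transcription factor that Mdm2 and Mdm4 hold at a low level or in an inactive state. DNA breaks and other stresses free it, and it then switches on genes for cell cycle arrest, DNA repair and cell death, together with genes that restrain it again. Thymocytes, the normal counterparts of T-ALL cells, are known to die through p53 after DNA damage. Active Cre recombinase can itself cut DNA, so the genes p53 activates bear on how cells respond to Cre as well as to the loss of a gene.

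The arrays resembled each other closely, with correlations between 0.991 and 0.996 over all probe sets. Zfx itself, the targeted gene, gave a log2 difference of 0.07 ± 0.06 (Tamoxifen minus Vehicle, SE) with a limma adjusted p of 0.48. Where its probes lie relative to the deleted part is not given in the sources used here, so the labels are not checked by it. The T lineage markers measured, such as Cd3e and Thy1, were above the filter on dim genes, and 0 of 11 changed, although 10 of the 11 differences were below 0. The smallest p-values there belonged to Rag2, a subunit of the V(D)J recombinase, at -0.75 ± 0.16 with an adjusted p of 0.057, and to Ptcra, the pre-T cell receptor alpha chain, at -0.27 ± 0.08 with an adjusted p of 0.12. Rag2 was lower in all 3 lines with no overlap between the groups, and its part in the values below was not tested. Their summed intensity was 51357 to 56709 on Tamoxifen arrays and 54221 to 63598 on Vehicle arrays. Of 42 measured markers of macrophages, neutrophils, B cells, erythroid cells, NK cells and stroma, 16 were too dim to test. Of the other 26, 0 changed between treatments, though some differed between lines, as given below. Some were bright. The NK cell marker Gzma had means of 12.68 on Tamoxifen and 12.48 on Vehicle arrays, and the stroma marker Pdgfrb 12.48 and 12.38. Pdgfrb gave differences of 0.61, 0.23 and -0.54 in lines 14843, 14844 and 14846. Which cells these signals came from was not tested. Bulk arrays cannot tell fewer cells of a type from less RNA per cell.

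Sequence upstream of the genes is shown first, because p53 acts through a known DNA element. Its binding site is a pair of decamers, each made of purines, a C, a pair of A or T bases, a G and pyrimidines. A RefSeq window of 300 bases around the start site (250 before it and 50 after, build GRCm38.p6) was at hand for 25 of the 32 genes. The consensus decamer was present in the windows of 13 of these 25 genes, or 52%, and in those of 2582 of all 27025 genes with a window, or 9.55%. Counted by window, the shares were 43.8% of 32 windows of the listed genes and 8.36% of all 32851 windows. The decamer reads the same on both strands, so each match was counted once for both. A pair of decamers with a gap of up to 13 bases was found in 0 of the 25 genes and in 20 of 27025. Many p53 sites are known to lie in introns, outside such windows, and a match here is a run of letters and not a measured binding site. The list was compiled from genes described as p53 targets, and some were recognised as targets by such elements, so these shares are a description only.

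The stretches below carry the decamer, in capitals, upstream of genes whose values follow. Ei24 is shown for the 250 bases before its start, since it is the gene that changed, and the others are shown for 40 bases around the match.
Ei24, chr9:36797335-36797584, minus strand: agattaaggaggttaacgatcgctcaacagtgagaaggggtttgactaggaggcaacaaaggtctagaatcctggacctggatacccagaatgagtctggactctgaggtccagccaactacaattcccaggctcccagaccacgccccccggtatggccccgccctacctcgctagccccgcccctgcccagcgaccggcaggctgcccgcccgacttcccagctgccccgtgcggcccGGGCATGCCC
Sesn1, chr10:41887251-41887290, plus strand: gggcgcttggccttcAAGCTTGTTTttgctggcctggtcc
Rps27l, chr9:66946291-66946330, plus strand: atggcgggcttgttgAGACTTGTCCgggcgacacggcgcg
Ckap2, chr8:22185998-22186037, minus strand: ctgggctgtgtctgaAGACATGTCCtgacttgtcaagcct
Gadd45a, chr6:67037423-67037462, minus strand: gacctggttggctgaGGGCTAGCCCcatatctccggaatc
Ddit4l, chr3:137623567-137623606, plus strand: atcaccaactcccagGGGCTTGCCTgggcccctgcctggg
Mdm2, chr10:117710920-117710959, minus strand: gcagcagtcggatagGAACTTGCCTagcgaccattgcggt
Ccng1, chr11:40755447-40755486, minus strand: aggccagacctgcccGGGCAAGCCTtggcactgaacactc
Aen, chr7:78895922-78895961, plus strand: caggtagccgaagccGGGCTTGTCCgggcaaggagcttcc

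In Ei24 the decamer occupied the last 10 bases before the start site, while in Sesn1 it began 173 bases before it and in Gadd45a 40 bases before it. Rps27l held another match that began 210 bases before the start. Of the tested genes, 12 had the decamer in their window, and their median log2 difference was 0.11, with 1 of 12 changed. The 9 tested genes with a window and no decamer had a median of 0.08, with 0 changed. The letters AGGCCT, the core of the sequence that Zfx is known to bind, were present in the window of 1 of the 25 genes, Gadd45g, and in 11.6% of all genes with a window. AGGCCT also reads the same on both strands, and it does not overlap the p53 decamer.

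Across the 27 tested p53 pathway genes, 1 changed between treatments, and it fell. That gene was Ei24, and no gene of the list rose. Over all 13956 genes tested, 6.23% changed at a limma adjusted p under 0.05, made up of 4.93% that fell and 1.3% that rose. A share of 1 in 27 is thus near the background. With each array centred on the median log2 intensity of its tested genes, the same 1 member fell and 0 rose. Over all genes the split of calls then moved to 412 higher and 562 lower, from 182 higher and 688 lower as deposited. Without the pairing by line 0 members changed.

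The differences of the list were small in both directions. The median log2 difference was 0.08 over the 27 genes and 0.03 over all genes tested, and 18 of the 27, or 66.7%, were above 0, against 58.6% of all genes. At an unadjusted p under 0.05 the list had 8 genes, 5 higher and 3 lower, and the share of all genes at that level was 23.8%. A difference beyond 0.25 in size was seen in 2 members, Ei24 and Sesn1, or 7.41%, against 12.7% of all genes. Tamoxifen arrays lay above Vehicle arrays in every line for 9 members, against 28.6% of all genes, and below them in every line for 3 members, against 20.2% of all genes. The treatments were fully separated for 2 members that were higher, Gadd45a and Ddit4l, and for 2 that were lower, Ei24 and Sesn1. The background for such separation was 12.2% of all genes for higher and 11.5% for lower values.

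The precision of the fit limits how large an unseen difference can be. For the 26 tested members that did not pass, every 95% interval of the log2 difference lay between -0.56 and 0.54. In 21 of the 26 the whole interval lay within 0.5 of 0, which is a 1.41-fold difference. Each interval covers its own gene at 95%, with no adjustment for reading 26 together. It concerns differences in array intensity and not in RNA amount. Tnfrsf10b, with means of 6.73 on Tamoxifen and 6.76 on Vehicle arrays, lay close to the filter at 6.70, and Dram1 and Ddit4l were also dim.

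**Figure D1:**
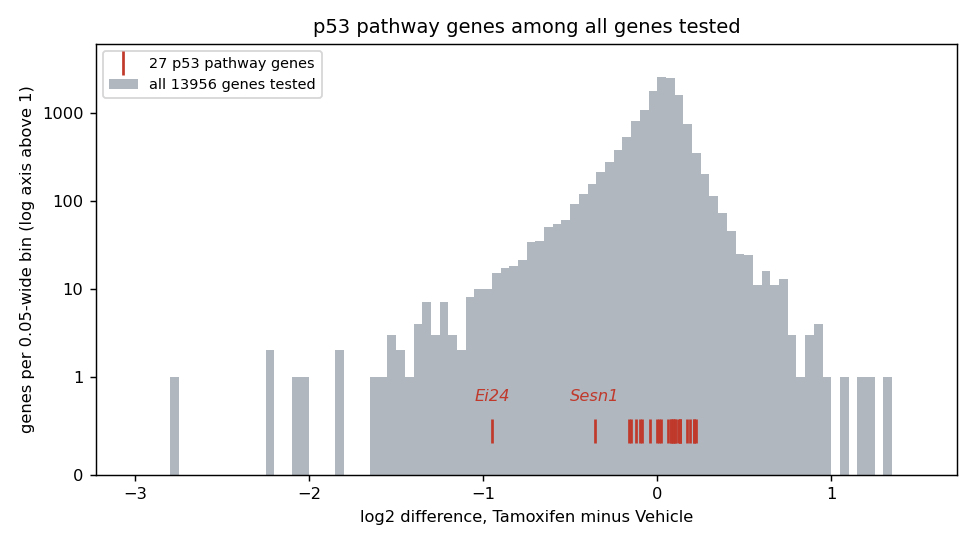
Log2 difference between Tamoxifen and Vehicle (x axis) for all 13956 genes tested, as the number of genes in bins 0.05 wide (y axis, log scale above 1), with a red tick for each of the 27 p53 pathway genes. Ei24 at -0.95 and Sesn1 at -0.36 stand to the left of the others, which lie between -0.16 and 0.22.

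Mdm2, Mdm4, Ccng1, Trp53inp1 and Ppm1d, which act on p53 or in its feedback, showed differences of at most 0.09 in size. Mdm2, the ubiquitin ligase that degrades p53 and is itself a p53 target, had log2 intensities of 10.81, 10.85 and 10.81 on the Tamoxifen arrays of lines 14843, 14844 and 14846, against 10.79, 10.82 and 10.67 on the Vehicle arrays. The groups overlapped, and the difference was 0.06 ± 0.05 (SE), with an adjusted p of 0.50 and a 95% interval from -0.07 to 0.20. Mdm4, the relative of Mdm2 that blocks p53 on its target genes, had 11.18, 11.19 and 11.17 on Tamoxifen arrays, against 11.42, 11.24 and 11.14 on Vehicle arrays of the same lines. Its Vehicle arrays thus spread more widely than its Tamoxifen arrays and enclosed them, at a difference of -0.09 ± 0.07 and an adjusted p of 0.49.

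Ccng1, the cyclin G1 gene and a strong p53 target in mice, had 12.53, 12.72 and 12.75 on Tamoxifen arrays, against 12.48, 12.72 and 12.53 on Vehicle arrays. Only line 14846 showed a clear gap, of 0.22, and the difference over lines was 0.09 ± 0.06, with an adjusted p of 0.43. Trp53inp1, a nuclear protein that promotes the p53 response, gave 0.08 ± 0.06. Ppm1d, the phosphatase Wip1 that switches the damage response off, gave 0.02 ± 0.08. Its lines 14843 and 14844 were slightly negative, at -0.12 and -0.08, and line 14846 was at 0.24.

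**Figure D2:**
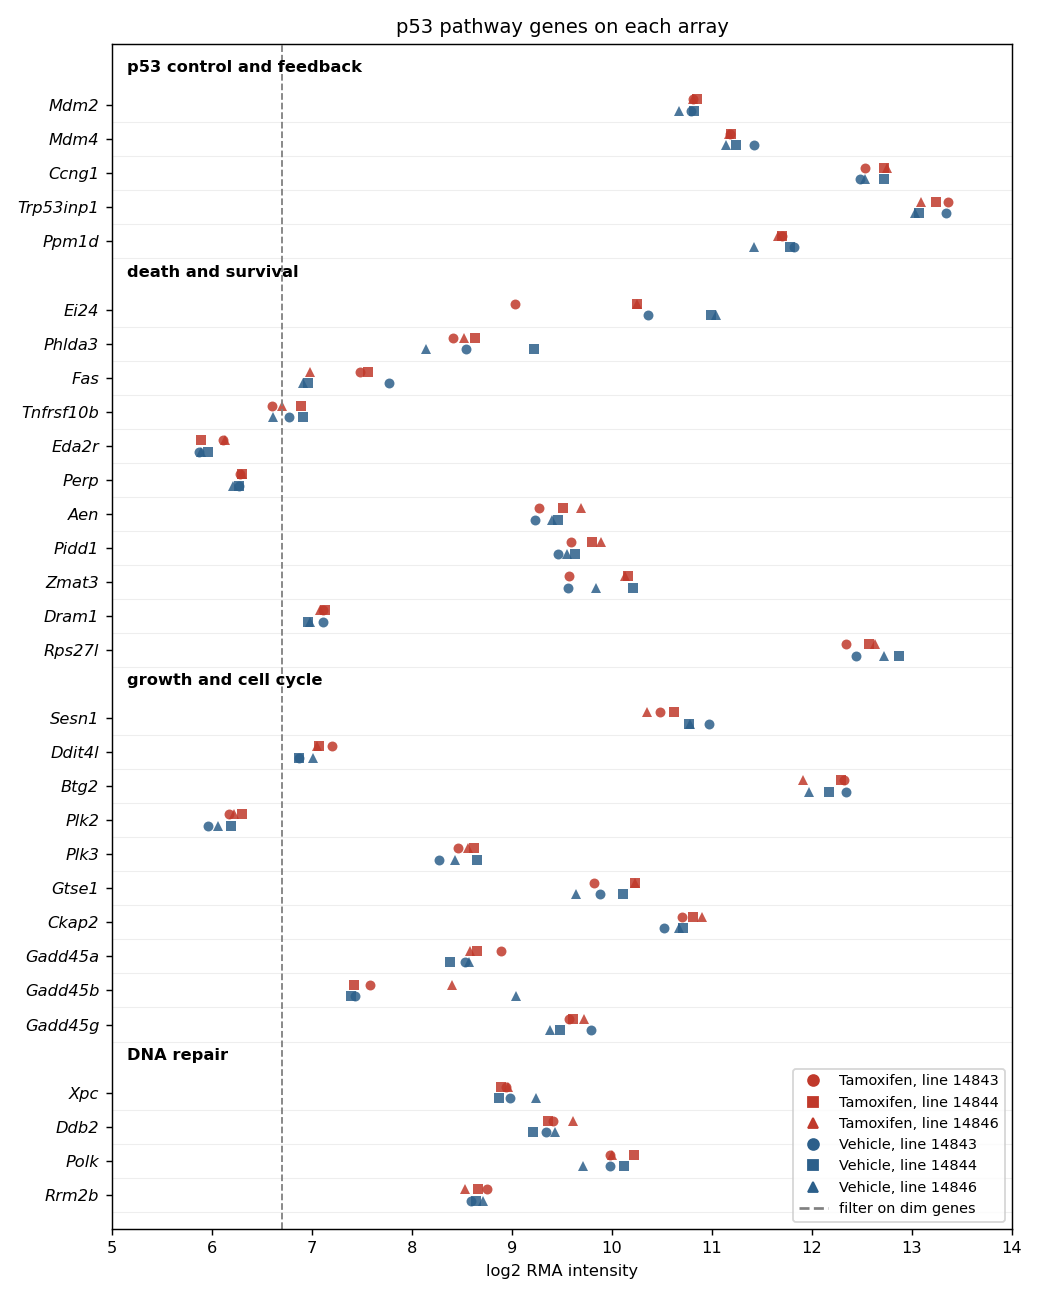
Log2 RMA intensity (x axis) of the 30 measured p53 pathway genes (rows, grouped by role) on each array, with Tamoxifen in red above Vehicle in blue and a symbol for each leukemia line. The red points of Ei24 lie left of its blue points, and Eda2r, Perp and Plk2 lie left of the dashed filter line at 6.70. Levels of different genes come from different probes and are not comparable.

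Ei24 was the gene of cell death that fell. It encodes a membrane protein of the endoplasmic reticulum that was identified as induced by p53 and that also takes part in autophagy. Its log2 intensities were 9.03, 10.25 and 10.25 on the Tamoxifen arrays of lines 14843, 14844 and 14846, against 10.36, 10.99 and 11.04 on the Vehicle arrays. Every Tamoxifen array lay below every Vehicle array, and line 14843 was the lowest line under both treatments. Means were 9.84 ± 0.71 on Tamoxifen arrays and 10.80 ± 0.38 on Vehicle arrays (SD, n = 3 each). Fitted with line as a block, the difference was -0.95 ± 0.12 (SE), or 1.94-fold lower, at an adjusted p of 0.018 by limma, with a 95% interval from -1.27 to -0.64. Within lines the differences were -1.33, -0.74 and -0.79 in lines 14843, 14844 and 14846. The call was lost without the pairing by line, at an adjusted p of 0.28, and without line 14844, at 0.087, where the difference was -1.06.

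Other genes of the death pathways gave values on both sides of 0, and none passed. Pidd1, a scaffold that activates caspase-2, had 9.59, 9.80 and 9.89 on Tamoxifen arrays, against 9.46, 9.63 and 9.55 on Vehicle arrays. It was higher in each of the 3 lines, but the groups overlapped, at a difference of 0.21 ± 0.06 and an adjusted p of 0.12. Phlda3, which restrains the survival kinase Akt, had 8.41, 8.63 and 8.52 on Tamoxifen arrays, against 8.54, 9.22 and 8.14 on Vehicle arrays. The Vehicle arrays enclosed the Tamoxifen arrays, with line differences of -0.13, -0.60 and 0.38, and the fit gave -0.12 ± 0.18 with an adjusted p of 0.72.

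The death receptor genes Fas and Tnfrsf10b gave 0.13 ± 0.16 and -0.04 ± 0.07, and neither had the same sign in all lines. Fas had 7.48, 7.56 and 6.98 on Tamoxifen arrays, against 7.77, 6.96 and 6.91 on Vehicle arrays. Its line 14843 gave -0.29 and its line 14844 gave 0.60, so the lines pointed in opposite directions. Aen, a nuclease of apoptotic cells, gave 0.12 ± 0.07, and Zmat3, an RNA-binding zinc finger protein, gave 0.09 ± 0.08. Dram1, which links p53 to autophagy, gave 0.10 ± 0.06, and Rps27l, a ribosomal protein paralog induced by p53, gave -0.16 ± 0.06 with an adjusted p of 0.21. Rps27l was lower in all 3 lines, by values from -0.30 to -0.09, though its groups overlapped. The dim genes Eda2r, a receptor of the tumour necrosis factor family, and Perp, a membrane protein of cell junctions and apoptosis, gave 0.14 ± 0.07 and 0.04 ± 0.04 in the fit without the filter.

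Among genes that slow growth or the cell cycle, Sesn1 came closest to the threshold. Sesn1 encodes sestrin 1, which dampens the growth kinase mTORC1 and is a p53 target. It had 10.48, 10.62 and 10.35 on Tamoxifen arrays, against 10.97, 10.77 and 10.78 on Vehicle arrays. Every Tamoxifen array was below every Vehicle array, with line differences of -0.48, -0.16 and -0.43. The difference was -0.36 ± 0.08, with a 95% interval from -0.55 to -0.16 and an adjusted p of 0.064, which missed the threshold, as it did under all 9 alternatives (adjusted p from 0.052 to 0.17).

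Gadd45a, a damage-inducible regulator of arrest and repair, had 8.89, 8.65 and 8.58 on Tamoxifen arrays, against 8.53, 8.38 and 8.57 on Vehicle arrays. The groups did not overlap, but line 14846 gave only 0.02, and the difference was 0.21 ± 0.08 with an adjusted p of 0.19. Its relatives Gadd45b and Gadd45g gave -0.15 ± 0.16 and 0.08 ± 0.11, with signs that differed between lines. Ddit4l, an inhibitor of mTORC1 signalling, had 7.20, 7.07 and 7.05 on Tamoxifen arrays, against 6.87, 6.87 and 7.01 on Vehicle arrays. These groups did not overlap either, at a difference of 0.19 ± 0.07 and an adjusted p of 0.19.

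Ckap2, a spindle protein of dividing cells, had 10.70, 10.81 and 10.90 on Tamoxifen arrays, against 10.52, 10.71 and 10.67 on Vehicle arrays. It was higher in each line, with overlap between the groups, at 0.17 ± 0.05 and an adjusted p of 0.14. Gtse1, a mitotic protein that opposes p53, had 9.82, 10.23 and 10.23 on Tamoxifen arrays, against 9.88, 10.11 and 9.64 on Vehicle arrays. The difference was 0.22 ± 0.13, and it came mostly from line 14846, at 0.59, against 0.12 and -0.06 in lines 14844 and 14843. The antiproliferative gene Btg2 gave 0.01 ± 0.06, and the stress kinase gene Plk3 gave 0.10 ± 0.06. The dim gene Plk2, a relative of Plk3, gave 0.16 ± 0.04 in the fit without the filter, with an adjusted p of 0.14.

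**Figure D3:**
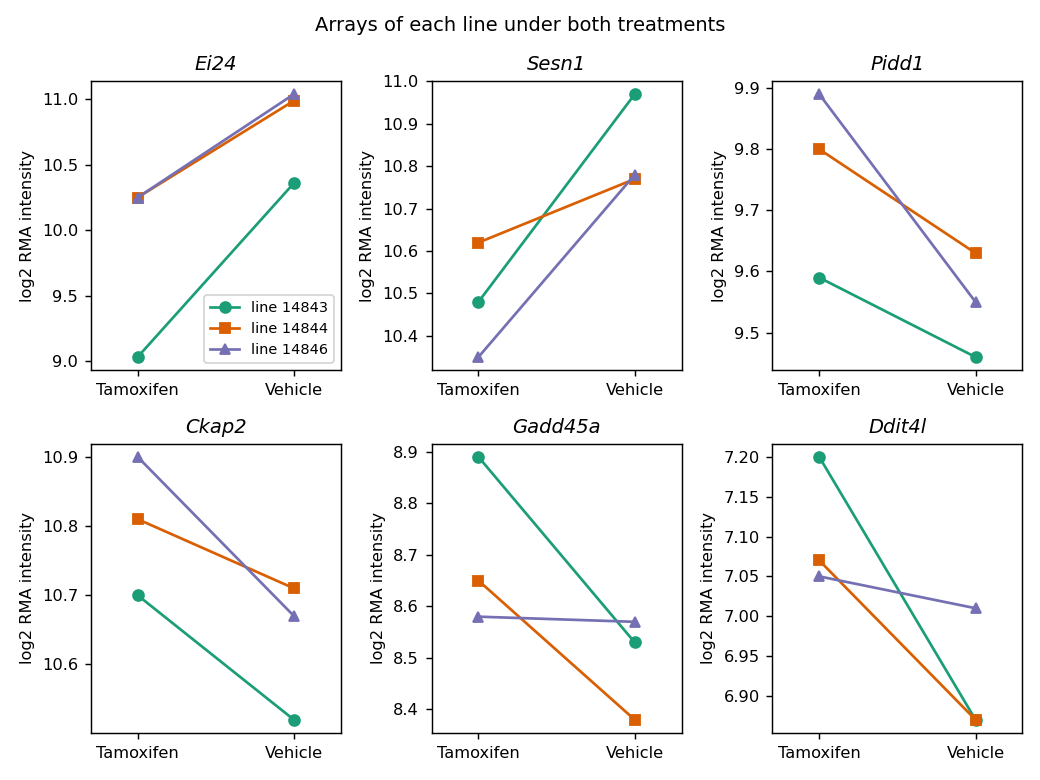
Log2 RMA intensity (y axis, a scale of its own in each panel) of the 6 tested p53 pathway genes with the smallest p, on the Tamoxifen array (left) and the Vehicle array (right) of each leukemia line, joined by a line. Ei24 and Sesn1 are lower on the Tamoxifen array in every line, and Pidd1, Ckap2, Gadd45a and Ddit4l are higher, although of the 6 only Ei24 passed the test.

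The DNA repair genes of the list did not pass either. Ddb2, which recognises ultraviolet damage, gave 0.13 ± 0.05, with an adjusted p of 0.20, and was higher in all 3 lines. Xpc, its partner in damage recognition, gave -0.10 ± 0.07. Polk, a polymerase that copies past lesions, gave 0.13 ± 0.07, and Rrm2b, the p53-inducible subunit of ribonucleotide reductase, had means of 8.64 ± 0.11 on Tamoxifen arrays and 8.65 ± 0.06 on Vehicle arrays (SD, n = 3 each).

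**Figure D4:**
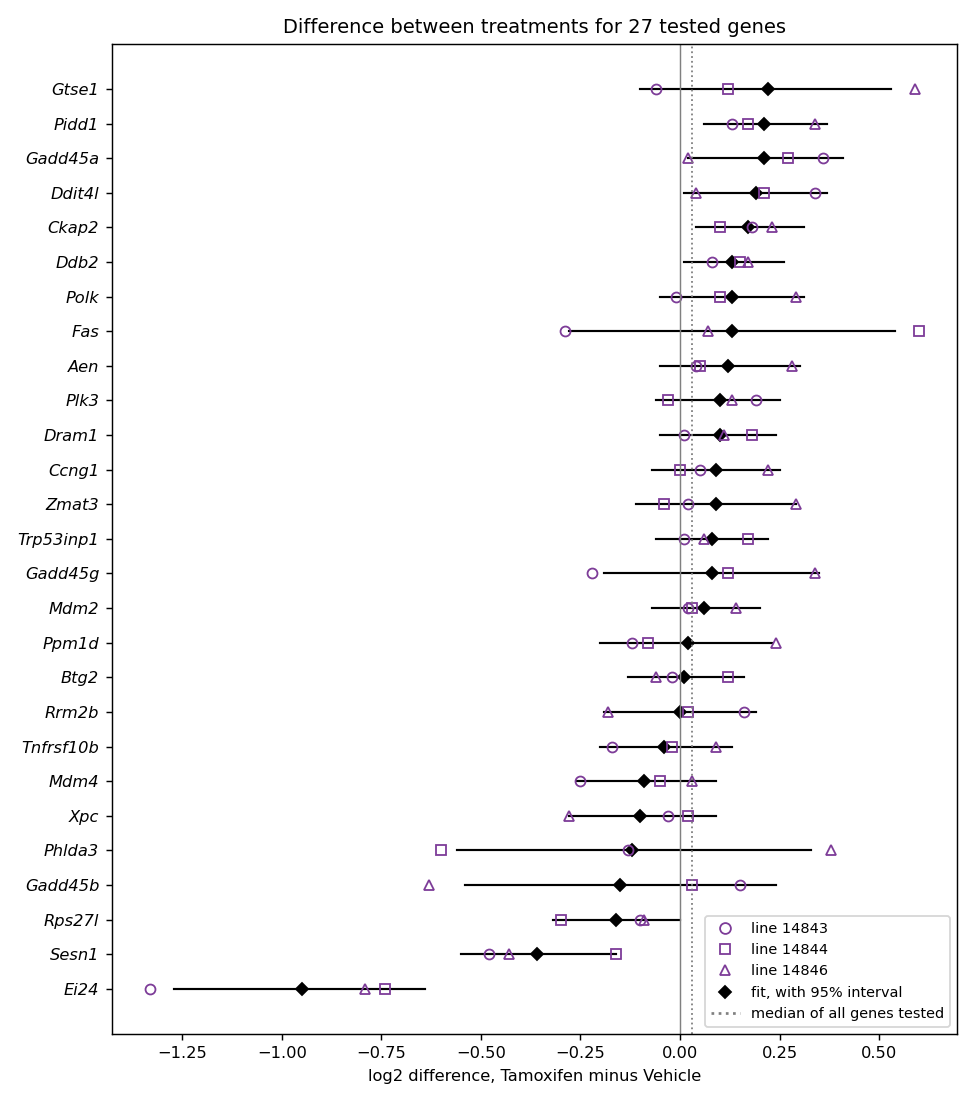
Log2 difference between Tamoxifen and Vehicle (x axis) for each of the 27 tested p53 pathway genes (rows), as the fitted value with its 95% interval in black and as the value of each leukemia line in open symbols, with the median of all genes tested as a dotted line. The interval of Ei24, from -1.27 to -0.64, lies farthest from 0, and most other intervals cross 0.

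By line, the median difference over the 27 genes was 0.01 in line 14843, 0.03 in line 14844 and 0.11 in line 14846, while over all genes tested it was 0.02 in each line. In line 14846, 20 of the 27 genes were above 0, against 14 in line 14843 and 17 in line 14844, and over all 13956 genes the counts were 7722, 7605 and 7897 in lines 14846, 14843 and 14844. The median over 19 G2/M genes was 0.23 in line 14846, against -0.01 in line 14843 and -0.05 in line 14844, though single genes varied, and Cdc20 gave 0.23 in line 14846 and 0.24 in line 14843. The part of cell cycle state in the values of Gtse1, Ckap2 and the other members in line 14846 was not tested. With 1 pair of arrays a line, differences between lines in the effect of treatment could not be tested.

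Between the leukemias themselves, averaged over treatment, 1 of the 27 genes passed limma's F test of the line terms, and the background was 3.11% of all genes. Gadd45b, a stress-inducible regulator of kinase signalling, had 8.40 on the Tamoxifen array and 9.04 on the Vehicle array of line 14846. It had 7.58 and 7.42 on the Tamoxifen arrays of lines 14843 and 14844, against 7.43 and 7.39 on their Vehicle arrays. Line 14846 was thus above the others under both treatments, with a range of 1.31 between line means and an adjusted p of 0.043. This call was lost without line 14844 or line 14846, without the filter on dim genes and with eBayes trend and robust settings. Some markers of other cell types passed the same test. The NK cell marker Klrb1c had line means of 7.04, 7.64 and 10.37 in lines 14843, 14844 and 14846, at an adjusted p of 0.0063. S100a8, Col1a2, Ngp and Lyz2 passed at 0.0072, 0.011, 0.027 and 0.036, each highest in line 14844, and the other tested markers did not pass. The part of other cells in the line differences was not tested.

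Within the p53 list, the next smallest p-values between lines after Gadd45b belonged to Ei24, Zmat3, Btg2 and Rps27l, and none passed. Ei24 had line means of 9.69, 10.62 and 10.65 in lines 14843, 14844 and 14846, at an adjusted p of 0.053. It passed in 3 of the 8 alternatives, namely with the filter at the 50th percentile, after centring and with trend and robust settings. Zmat3 had line means of 9.56, 10.19 and 9.99, at an adjusted p of 0.065 that passed without line 14846, and Rps27l had 12.39, 12.72 and 12.68, at 0.14. In Ei24, Zmat3 and Rps27l, line 14843 was the lowest line. Btg2 had 12.33, 12.23 and 11.94, at 0.093, which passed after centring, and line 14846 was its lowest.

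**Figure D5:**
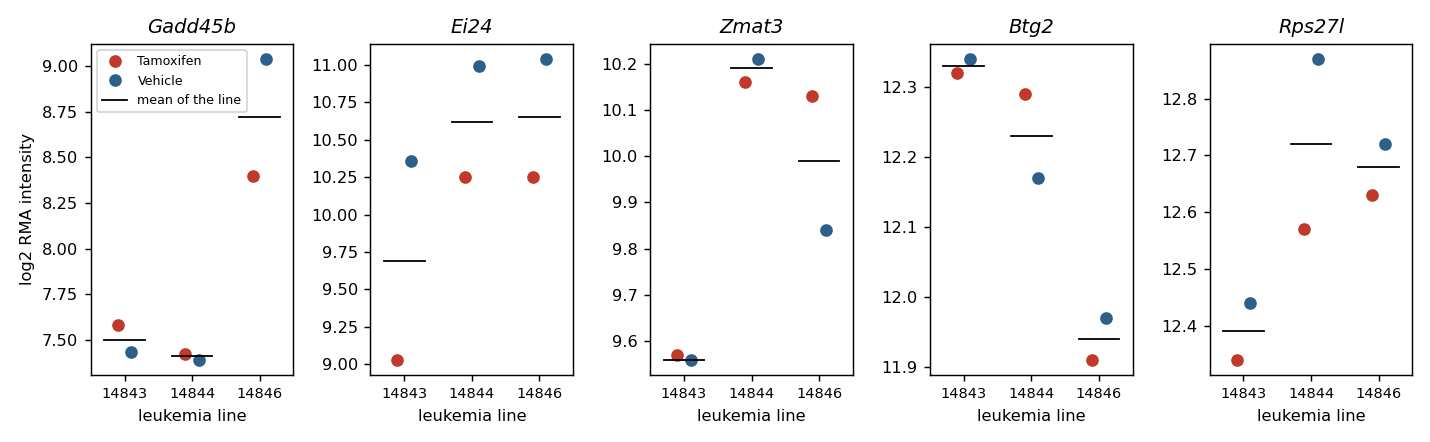
Log2 RMA intensity (y axis, a scale of its own in each panel) of the 5 p53 pathway genes with the smallest p between leukemia lines (x axis), with Tamoxifen arrays in red left of Vehicle arrays in blue and the mean of each line as a bar. Gadd45b is high in line 14846, where its line mean is 8.72, and Ei24 is low in line 14843, at 9.69.

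A second list held 40 other genes described as p53 targets, of which 34 were tested, 2 rose and 1 fell, with a median difference of 0.00. Its 3 calls among 34 genes stand beside the 6.23% of all genes that changed. Cdkn1a and Bax were not analysed here. Apaf1, the core of the apoptosome, had 10.89, 10.97 and 10.93 on Tamoxifen arrays, against 10.58, 10.70 and 10.51 on Vehicle arrays, and rose by 0.33 ± 0.05, with an adjusted p of 0.032. Trp53inp2, a relative of Trp53inp1 better known for autophagy than as a p53 target, had 9.19, 9.49 and 9.11 on Tamoxifen arrays, against 8.88, 8.70 and 8.65 on Vehicle arrays, and rose by 0.52 ± 0.10, with an adjusted p of 0.045. The groups did not overlap for either gene. Sfn, the 14-3-3 sigma gene that holds cells in G2, had 8.12, 7.95 and 8.36 on Tamoxifen arrays, against 8.59, 8.60 and 8.73 on Vehicle arrays. All Tamoxifen arrays lay below all Vehicle arrays, and it fell by 0.49 on the log2 scale (SE 0.07), with an adjusted p of 0.022. All 3 calls were lost without the pairing by line and without line 14844, and Apaf1 and Trp53inp2 also lost theirs without line 14846.

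Among p53 regulators and cofactors, 0 of 26 tested genes changed, with a median difference of -0.02. The smallest p-values there belonged to Setd7, a methyltransferase that modifies p53, at -0.24 ± 0.06 with an adjusted p of 0.096, and to Atr, a kinase that signals replication stress, at 0.18 ± 0.05 with an adjusted p of 0.10. Among the 19 tested G2/M genes 0 changed, with a median of 0.03. The genes of smallest p were Cdc20, an activator of the anaphase-promoting complex, at 0.16 ± 0.07, and the mitotic kinase gene Plk1, at 0.14 ± 0.07.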

How the data were processed

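RNA of the 6 samples, 200 ng each, was hybridised to Affymetrix arrays of a single colour, per the labels' protocols. The authors deposited linear probe set intensities, for which the submitters' processing notes name RMA and Affymetrix Expression Console 1.1. RMA equalises the distribution of intensities across arrays, so a shift shared by all genes is removed. Of 35556 probe sets, 21789 had a single gene symbol, and the probe set with the highest mean represented each of 19938 genes. Each measured gene of the p53 list had 1 such probe set.

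Log2 intensities were computed here. The 13956 genes at or above the 30th percentile of the mean, a log2 intensity of 6.70, were tested by lmFit and eBayes of limma (version 3.58.1, under R 4.3.3), with line as a block, two-sided, with Benjamini-Hochberg adjustment over all genes tested and a threshold of 0.05. The pairing comes from the series design, in which each line was passed to recipients of both treatments, and the 2 arrays of a line deviated together from their group means (correlations of 0.64, 0.68 and 0.68). Precision is limited by the number of arrays. Intervals are 95% for each gene taken alone and use the moderated spread. The steps were tested on simulated data. The listed genes, the other lists and the tests were chosen with earlier results of these data known. Every listed gene was named. All arrays were given in full for genes that passed, or else the 6 with the smallest p, for Mdm2, Mdm4, Ccng1 and Phlda3, and the lines for the 5 with the smallest p between lines. The arrays of Fas and Gtse1 were added after their values were seen. From each other list up to 4 changed genes were named, or else the 2 with the smallest p, and Zfx always.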

Additional observations from a re-analysis of the deposited data

How the results depend on the processing

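The tests were repeated without the block for line, without the filter on dim genes and with it at the 50th percentile. They were repeated after centring each array on the median log2 intensity of its tested genes, and with eBayes trend and robust settings. Further repeats averaged probe sets per gene or left out each line in turn. The count of changed genes was 870. It was 295 without the block, where the p53 pathway and the other p53 targets both had 0 changed genes. Leaving out a line gave 70 to 669 changed genes, 0 to 1 lower p53 pathway genes, 0 to 1 genes of the pathway that differed between lines and 0 to 2 changed genes of the other p53 targets, with the lowest of each without line 14844. Each such fit has fewer residual degrees of freedom.

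Of the p53 pathway genes, the count that differed between lines was 0 without the filter, 2 with it at the 50th percentile and 3 after centring. The list's median difference was 0.14 after centring, which raised the median over all genes to 0.08. Signs turned, with no call in either fit, for 9 genes near 0. Over the fits that left out a line, differences ran from -0.36 to 0.12 for Phlda3, from -0.01 to 0.15 for Zmat3, from -0.11 to 0.33 for Fas and from -0.04 to 0.05 for Btg2. They ran from -0.08 to 0.09 for Rrm2b, from -0.10 to 0.08 for Ppm1d, from -0.30 to 0.09 for Gadd45b, from -0.05 to 0.23 for Gadd45g and from -0.10 to 0.03 for Tnfrsf10b. After centring, Tnfrsf10b was 0.02 and Rrm2b 0.06. The cause was not tested. Trp53inp2 also lost its call without the filter on dim genes, at an adjusted p of 0.059, and Apaf1 without line 14843, at 0.081.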
